A study of Mus musculus with 10 samples.

Results

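Aminoacyl-tRNA synthetases were described in mouse cortical neuron cultures that received Gata1, a zinc finger transcription factor of blood cell development, and in control cultures. Genes were taken by symbol: every row of the mRNA tables named for a synthetase by the one-letter amino acid code followed by "ars" (with Eprs, Farsa and Farsb), with or without a final 2. This gave 37 genes of the 40904 symbols in the tables, 20 cytosolic genes and 17 genes ending in 2, which encode the mitochondrial enzymes. Each of the 37 had 1 row and a mean of at least 1 FPKM, so none was lost to the minimum used below.

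The control group was a primary culture from ICR mouse embryos at embryonic day 14, infected with the adeno-associated virus AAV-Control and collected on day 11 in vitro. The other group was the same kind of culture infected with AAV-Gata1. The promoter driving Gata1, the number of embryos and any pooling were not stated in the labels. Each group had 1 mRNA library, so no difference below has a replicate check, no test was possible and no error can be given.

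These enzymes join each amino acid to its tRNA, the step that makes the genetic code hold during translation. Most amino acids have a cytosolic enzyme and a separate mitochondrial enzyme, both encoded in the nucleus, while Gars and Kars each serve both compartments and Qars has no mitochondrial counterpart. Mutations in cytosolic members are known causes of inherited axonal neuropathy, and mutations in mitochondrial members of leukodystrophy, epilepsy and hearing loss. Several cytosolic members are targets of ATF4, the transcription factor of the amino acid response, which binds the C/EBP-ATF response element.

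Promoter windows (250 bases before to 50 after the annotated start) came from RefSeq, build GRCm38.p6, and 27 of the 37 members had one. Those without an entry included Nars, Wars, Hars, Rars, Vars, Lars, Cars, Hars2 and Pars2. The core of the C/EBP-ATF element, TGATGNAA, was searched on both strands. It was found in 5 of 13 cytosolic members and 0 of 14 mitochondrial members, beside 3.97% of all 32851 windows. The 5 members, Aars, Gars, Iars, Tars and Yars, are among the 8 members with a window that are known as ATF4 targets, and none of the 5 other cytosolic members with a window (Dars, Farsa, Farsb, Kars and Qars) held it. Eprs, Mars and Sars, also known as ATF4 targets, had a window without it, and the targets Nars, Wars, Lars and Cars had no window. ATF4 binds this element, so the target label and the match may not be independent. A match from each of the 5 is shown for its letters and place, as these 5 were grouped by holding it. Capitals mark the match, which in every stretch but that of Yars is the reverse complement of the element, and each stretch runs in the gene's own direction.
Aars, chr8:111033840-111033869 (+): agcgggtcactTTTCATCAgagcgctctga
Gars, chr6:55037960-55037989 (+): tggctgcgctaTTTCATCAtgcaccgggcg
Iars, chr13:49682126-49682155 (+): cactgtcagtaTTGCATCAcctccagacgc
Tars, chr15:11399655-11399684 (-): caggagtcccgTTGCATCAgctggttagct
Yars, chr4:129189895-129189924 (+): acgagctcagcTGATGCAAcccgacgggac
Counted from the annotated start, the first base of the match shown lay at 10 in Aars, −30 in Gars, 8 in Iars, −15 in Tars and 4 in Yars. Aars held another match at −112, which is not shown. A match is a description of the letters and not a measured binding site. Other motifs were searched too, and TGATGNAA was not the only one found more often in cytosolic members than in all windows. The E-box was in 4 of 13 cytosolic members (Aars, Farsb, Iars and Tars) and 1 of 14 mitochondrial members, beside 7.15% of all windows. The NRF1 motif was in 3 of 13 and 2 of 14, beside 4.60%. GATA words are given below. No difference between these shares was tested.

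Lars2, the mitochondrial leucyl-tRNA synthetase, had the largest difference of all 37 members. The 250 bases before its annotated start are shown for that reason, with the 4-letter GATA core in capitals. The core shown lies at −142, and another in the window begins at 1, just past the stretch.
Lars2, chr9:123366677-123366926 (+): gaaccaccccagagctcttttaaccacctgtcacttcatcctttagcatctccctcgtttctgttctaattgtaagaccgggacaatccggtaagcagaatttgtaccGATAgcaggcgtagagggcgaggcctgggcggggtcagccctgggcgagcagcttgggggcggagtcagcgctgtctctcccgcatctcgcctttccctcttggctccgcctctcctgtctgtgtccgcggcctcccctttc
The core GATA alone is common: it was in 57.9% of all windows, on either strand. None of the 4 longer words that GATA factors prefer (AGATAA or AGATAG or TGATAA or TGATAG, on either strand) was in the Lars2 window. At least 1 of the 4 words was in 7 of the 27 members with a window, beside 29.8% of all windows. The 7 were Farsb and Sars among cytosolic members and Aars2, Ears2, Iars2, Sars2 and Yars2 among mitochondrial members. No binding was measured in the files used here.

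Values given in pairs below have the AAV-Control library first and the AAV-Gata1 library second. The libraries summed to 476398 and 476848 FPKM. FPKM corrects fragment numbers for gene length and library size, so levels can be compared between genes. The number of fragments behind a value is unknown. Gata1 was listed at 0 with AAV-Control and stood at 2.07 FPKM with AAV-Gata1. Of 14 measured neuron markers all had at least 1 FPKM, with Map2 at 240 and 236 FPKM, and astrocyte markers were also high, with Gfap at 887 and 897 FPKM, so the cultures held more than neurons. In bulk RNA fewer cells of a type and less RNA per cell cannot be told apart.

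The 37 synthetases together took 0.214% and 0.213% of all FPKM. Cytosolic genes summed to 859 and 850 FPKM. Mitochondrial genes summed to 160 and 166 FPKM. Leaving out Lars2, which was chosen once its value was known, the mitochondrial sums were 143 and 141 FPKM, so the higher sum of the Gata1 library came from that gene.

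Levels separated the compartments. The median cytosolic gene stood at 38.4 and 37.5 FPKM, and the median mitochondrial gene at 7.02 and 7.65 FPKM. The ratio of these medians was 5.48 and 4.91. Against the 13740 genes compared, the cytosolic median lay at the 81.0th percentile of level in the control and the mitochondrial median at the 32.3rd. In the control the groups did not overlap: the lowest cytosolic gene, Iars, stood at 22.79 FPKM and the highest mitochondrial gene, Rars2, at 22.59 FPKM. In the Gata1 library Lars2, at 25.3 FPKM, stood above 3 cytosolic genes (Vars, Iars and Tars). Rars2, at 22.59 FPKM there, stood above Vars. Rars2 overlaps the coding gene Orc3, at 41.1 and 38.1 FPKM, and the part of Orc3 fragments in its value was not tested. The symbol ending that set the groups did not use these levels, but with 1 library each the separation has no replicate check.

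**Figure D1:**
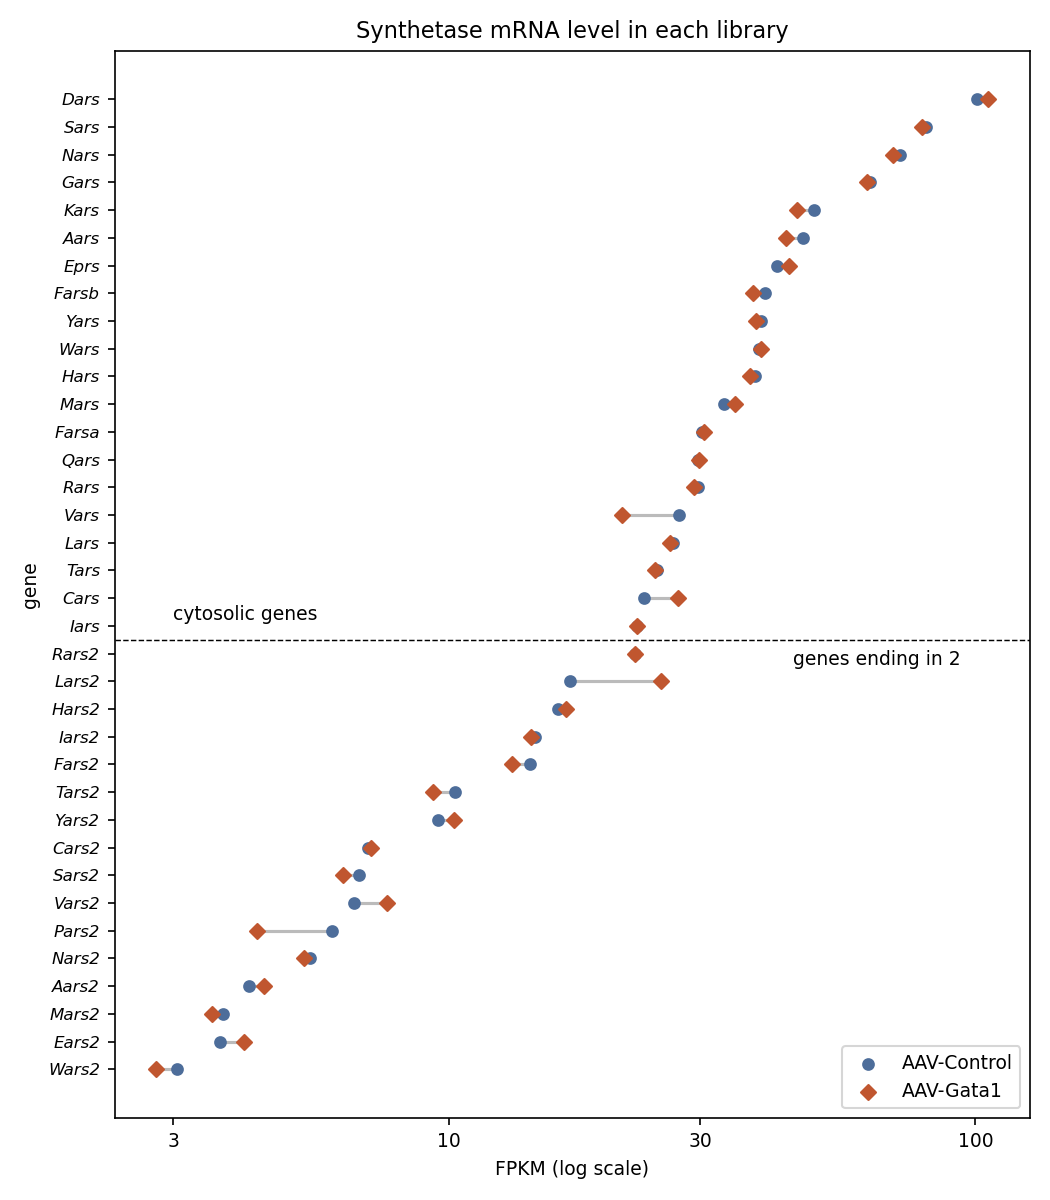
FPKM of 36 of the 37 synthetase genes (log axis) in the AAV-Control library (circles) and the AAV-Gata1 library (diamonds), ordered by control level within each compartment. Cytosolic genes lie between 21.3 and 106 FPKM and genes ending in 2 between 2.78 and 25.3 FPKM, and the widest gap between libraries is that of Lars2.

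The difference between the libraries was taken as log2((Gata1 + 1)/(control + 1)) of the FPKM, a scale that understates differences of low genes. No member reached 2-fold on it, beside 0.517% of all genes compared. A limit of 1.2-fold was passed by 3 of 37 members, Lars2 higher and Pars2 and Vars lower, beside 7.27% of all genes compared, so the share of members past it is near the background. Differences of any size went lower in 13 of 20 cytosolic and 9 of 17 mitochondrial members, beside 54.7% of all genes, and higher in 7 and 8, beside 45.3%. The same all-gene shares stand beside every count of direction below. The median log2 difference was −0.019 for cytosolic members, −0.023 for mitochondrial members and −0.013 for all genes. Of the 37, 27 lay within 0.1 of 0 on the log2 scale.

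**Figure D2:**
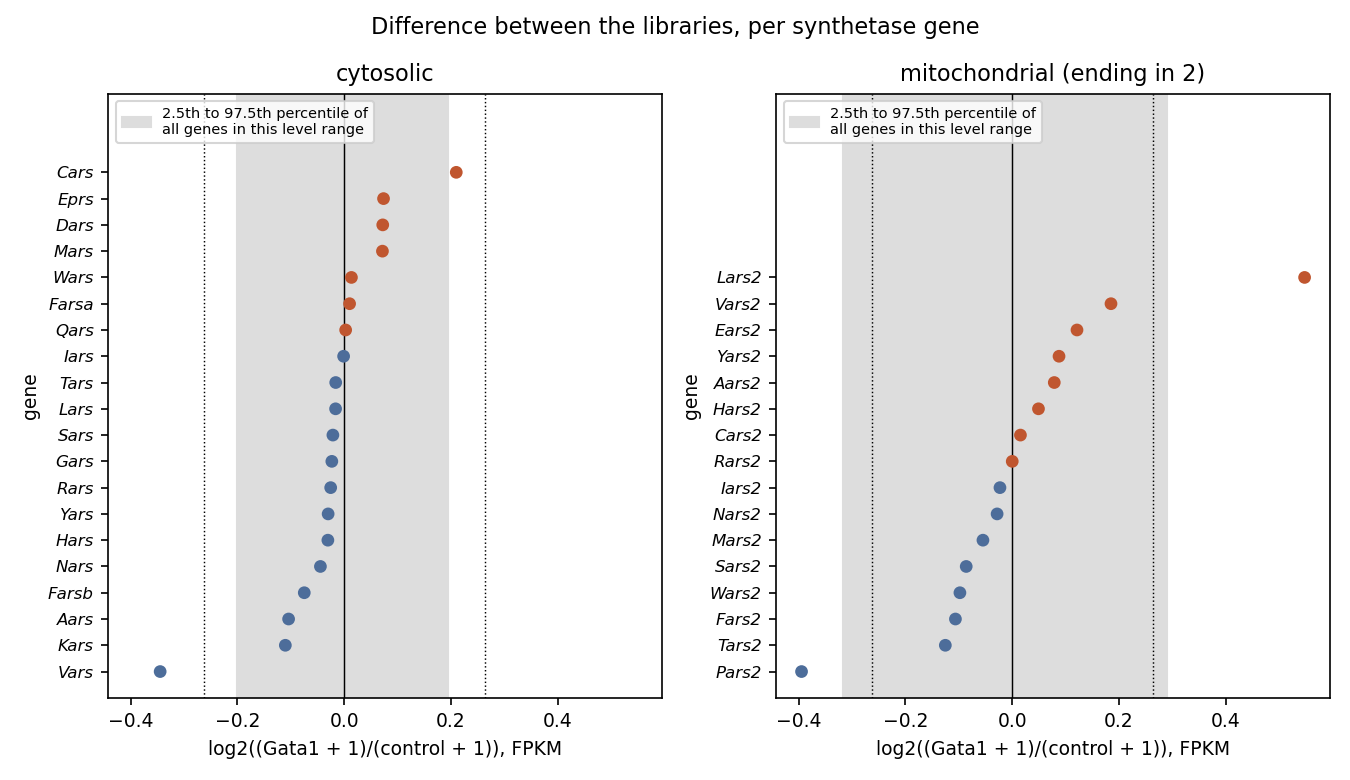
Log2 difference between the libraries for 20 cytosolic (left) and 16 mitochondrial (right) synthetase genes, with higher values in the Gata1 library in orange and lower in blue. The grey band, whose percentiles the legend gives, covers most of the genes whose mean level lies in the range of that compartment's members, and dotted lines mark 1.2-fold. Vars and Cars lie outside the band on the left, and Pars2 and Lars2 on the right.

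Lars2 stood at 17.0 and 25.3 FPKM, a log2 difference of 0.55. That is above 99.3% of all genes compared. With Pars2 it made 2 of 17 mitochondrial members past 1.2-fold, beside 7.41% of the 7304 genes in their mean level range. Its cytosolic partner Lars, a subunit of the multisynthetase complex that also senses leucine for mTORC1, stood at 26.6 and 26.3 FPKM. The mitochondrial to cytosolic ratio for leucine was therefore 0.638 and 0.960. In the RefSeq annotation of GRCm38.p6 Lars2 overlaps the long noncoding gene Gm46137, which has no row in the tables as read here, and the part of fragments from it in the Lars2 value was not tested. Of 14 names listed for rRNA-derived, mitochondrial rRNA or other structural RNA, 3 had rows. Gm26917 stood at 4.33 and 5.99 FPKM, Rn7sk at 6.76 and 8.08 FPKM, and AY036118 at 6.70 and 5.88 FPKM. The names without a row included mt-Rnr2, Rn45s and Gm42418, so their levels are unknown here. The part of any of these RNAs in the Lars2 difference was not tested.

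Pars2, the mitochondrial prolyl-tRNA synthetase, was the lowest on the log2 scale. It stood at 6.00 and 4.32 FPKM, a log2 difference of −0.39. Its cytosolic partner Eprs, which joins both glutamate and proline to their tRNAs, went slightly the other way, from 42.1 to 44.3 FPKM. The cytosolic to mitochondrial ratio for proline was 7.01 and 10.2. Pars2 overlaps no other annotated gene.

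Vars, the cytosolic valyl-tRNA synthetase, stood at 27.3 and 21.3 FPKM, a log2 difference of −0.34. It was the 1 cytosolic member of 20 past 1.2-fold, beside 2.10% of the 3664 genes within the mean level range of the cytosolic members. Its mitochondrial partner Vars2 was higher in the Gata1 library, at 6.61 and 7.65 FPKM. The cytosolic to mitochondrial ratio for valine was 4.14 and 2.79. Vars overlaps no other annotated gene, and its near-namesake Vars2 lies elsewhere on the same chromosome.

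Cars, the cytosolic cysteinyl-tRNA synthetase, was the highest cytosolic member on the log2 scale, at 23.5 and 27.3 FPKM (0.21). It did not reach 1.2-fold on the log2 scale. Its mitochondrial partner Cars2 stood at 7.02 and 7.11 FPKM.

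The multisynthetase complex binds 8 cytosolic enzymes into 1 particle around 3 scaffold proteins. Of the 8 enzyme genes 4 were higher and 4 lower in the Gata1 library, beside 45.3% higher and 54.7% lower of all genes compared. Their median log2 difference was 0.00083. Dars, the aspartyl enzyme and the most abundant of all 37 members, stood at 101 and 106 FPKM. Kars, the lysyl enzyme, stood at 49.5 and 45.7 FPKM, the lower of the pair being the Gata1 library. Mars, the methionyl enzyme, stood at 33.3 and 35.0 FPKM. It overlaps the coding gene Ddit3, at 30.6 and 28.7 FPKM, and the part of Ddit3 fragments in its value was not tested. Qars, the glutaminyl enzyme, stood at 29.80 and 29.86 FPKM. Rars, the arginyl enzyme, stood at 29.8 and 29.3 FPKM, and Iars, the isoleucyl enzyme, at 22.79 and 22.78 FPKM. The scaffold genes also went both ways. Aimp1 stood at 35.2 and 36.3 FPKM, Aimp2 at 29.2 and 25.9 FPKM, and Eef1e1, also called AIMP3, at 28.0 and 30.8 FPKM. In level the scaffold genes lay among the enzymes they bind.

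Cytosolic members outside the complex were lower in 9 of 12 cases, beside 54.7% of all genes compared, with a median log2 difference of −0.027. A difference in direction from the members of the complex was not tested. Sars, the seryl enzyme, stood at 80.5 and 79.3 FPKM. Nars, the asparaginyl enzyme, stood at 71.9 and 69.7 FPKM, and Gars, the glycyl enzyme mutated in a form of Charcot-Marie-Tooth neuropathy, at 63.2 and 62.2 FPKM. These 3 followed Dars as the most abundant members in both libraries. Aars, the alanyl enzyme, whose editing site is needed for the survival of Purkinje neurons in mice, stood at 47.1 and 43.7 FPKM. Yars, the tyrosyl enzyme, stood at 39.2 and 38.4 FPKM. Hars, the histidyl enzyme, stood at 38.1 and 37.3 FPKM. Tars, the threonyl enzyme, stood at 24.9 and 24.6 FPKM. Wars, the tryptophanyl enzyme, which interferon induces in many cells, stood at 38.8 and 39.2 FPKM. The phenylalanyl enzyme is built from the products of Farsa and Farsb in equal number. Farsa stood at 30.3 and 30.5 FPKM and Farsb at 39.9 and 37.8 FPKM, so the gene for the beta subunit was the higher in both libraries.

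Among mitochondrial members Rars2, mutated in pontocerebellar hypoplasia, led in the control and stood at 22.59 FPKM in both libraries. Hars2, the histidyl enzyme, stood at 16.1 and 16.7 FPKM. It overlaps its cytosolic partner Hars at their start sites, and the part of Hars fragments in its value was not tested. Iars2, the isoleucyl enzyme, stood at 14.6 and 14.3 FPKM. Iars2 overlaps the coding gene Rab3gap2, at 9.32 and 8.88 FPKM, and the part of Rab3gap2 fragments in its value was not tested. Fars2, the phenylalanyl enzyme, stood at 14.3 and 13.2 FPKM. Tars2, the threonyl enzyme, stood at 10.3 and 9.35 FPKM. Yars2, mutated in a myopathy with sideroblastic anemia, stood at 9.56 and 10.2 FPKM.

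Further mitochondrial members with levels under 7 FPKM in both libraries were the seryl, asparaginyl, alanyl, methionyl, glutamyl and tryptophanyl enzymes. Sars2 stood at 6.75 and 6.30 FPKM, and Nars2 at 5.44 and 5.32 FPKM. Aars2, mutated in a leukodystrophy with ovarian failure, stood at 4.17 and 4.46 FPKM. Mars2 stood at 3.73 and 3.55 FPKM. Ears2, also linked to a leukoencephalopathy, stood at 3.67 and 4.09 FPKM. Wars2 was the lowest of all 37 members in both libraries, at 3.05 and 2.78 FPKM. Apart from Lars2 and Pars2, the mitochondrial genes differed by no more than 0.19 on the log2 scale.

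Each mitochondrial gene was set beside its cytosolic partner for the same amino acid, with Eprs serving for glutamate and proline and the mean of Farsa and Farsb for phenylalanine. The cytosolic gene was the higher in 17 of 17 pairs in both libraries. In the control this count follows from the lack of overlap given above and is not a further result. The ratio ran from 1.32 (arginine) to 13.2 (asparagine) in the control, with a median of 4.14, and from 1.04 (leucine) to 14.1 (tryptophan) in the Gata1 library, with a median of 3.84. Of the 17 ratios, 14 changed by less than 1.2-fold between the libraries. The exceptions were leucine, valine and proline, each given above. Arginine (1.32 and 1.30) and isoleucine (1.57 and 1.59) had low ratios in both libraries. Rars2 and Iars2 each overlap another coding gene, and the part of its fragments in these ratios was not tested. Glutamate, serine, tryptophan and asparagine had cytosolic genes over 10 times as high in both libraries.

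**Figure D3:**
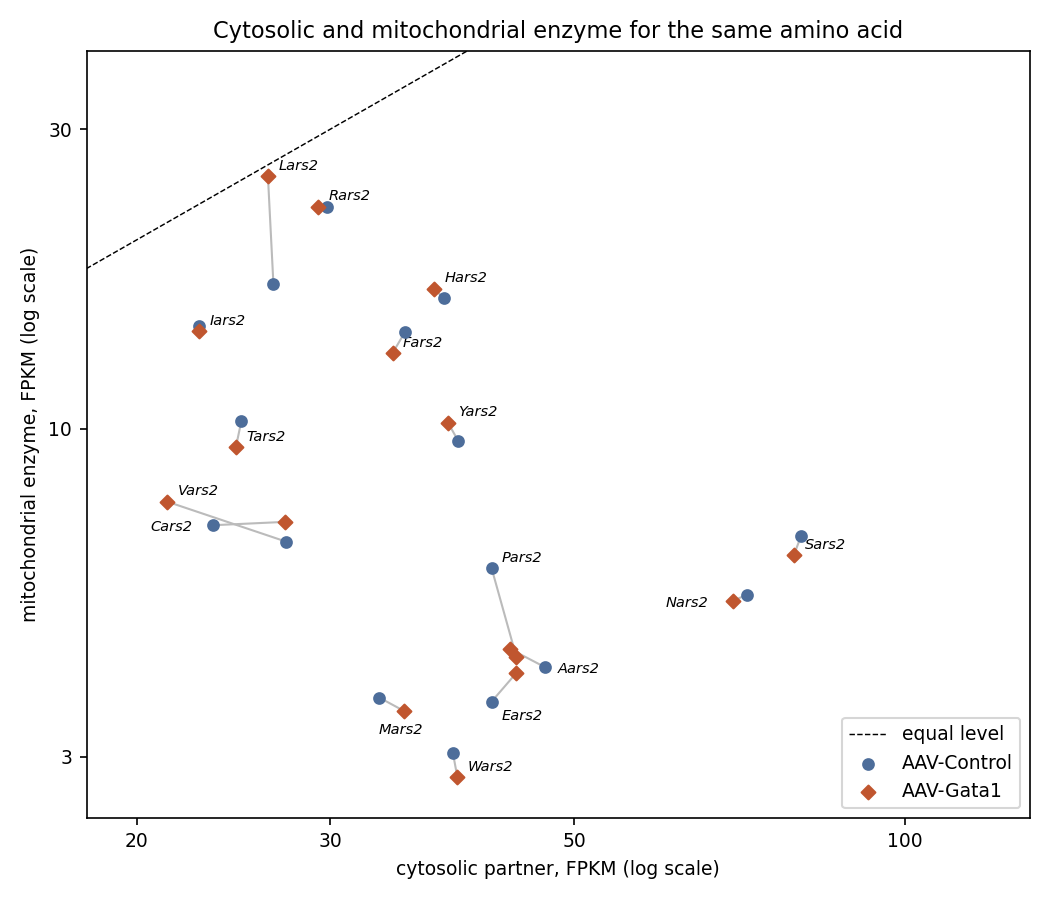
Level of the mitochondrial enzyme gene against that of its cytosolic partner (both log axes, FPKM), 1 pair per amino acid for 16 pairs, with a line joining the AAV-Control (circle) and AAV-Gata1 (diamond) values. The 16 pairs drawn lie below the line of equal level, and the leucine pair moves closest to it, from a cytosolic to mitochondrial ratio of 1.57 to 1.04.

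Synthetases fall into a class I and a class II by the fold of the catalytic domain. Class II cytosolic genes had the higher median level, 48.3 FPKM against 29.8 FPKM for class I in the control, and 44.7 against 29.3 FPKM in the Gata1 library, with Eprs, which holds a domain of each class, left out. Among mitochondrial genes the class medians were closer, at 7.02 FPKM for class I and 7.78 FPKM for class II in the control, and at 7.65 and 7.45 FPKM in the Gata1 library, where the order turned. In the difference between libraries, 2 of 10 class II cytosolic genes and 4 of 9 class I genes were higher, beside 45.3% of all genes compared. Of the mitochondrial genes, 6 of 9 in class I and 2 of 8 in class II were higher, beside the same 45.3%. Most of these differences were small: in the same order 8, 7, 6 and 5 genes lay within 0.1 of 0 on the log2 scale. A difference in direction between the classes was not tested.

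Members known as ATF4 targets did not stand apart from the other cytosolic members. Their median log2 difference was −0.016 over 12 genes, with 4 higher, and that of the other 8 was −0.028, with 3 higher. Of all genes compared, 45.3% were higher. The 5 members whose TGATGNAA match is printed above lay between −0.10 (Aars) and −0.0011 (Iars), with a median of −0.023. Atf4 itself stood at 117 and 115 FPKM. Among 28 measured ATF4 targets that are not synthetases, 13 were higher and 15 lower, with a median of −0.0056, a sign that turns with centring on the median of all genes. Cebpb, a transcription factor, was the furthest apart of them, at 8.25 and 12.1 FPKM. Chac1, a glutathione-degrading enzyme, stood at 9.41 and 7.46 FPKM, Stc2 at 2.37 and 1.90 FPKM, and Pycr1, an enzyme of proline synthesis, at 6.10 and 7.07 FPKM.

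The next steps of translation were as close. Of 9 cytosolic elongation factor genes 4 were higher and 5 lower, with a median log2 difference of −0.0026, which also turns sign with centring. Among them Eef1a2, the neuronal and muscle form of the factor that receives charged tRNA, stood at 38.03 and 35.40 FPKM. Eef1d, of the exchange factor complex that binds Vars, stood at 97.8 and 85.9 FPKM, lower in the Gata1 library as Vars was. Eef1b2, of the same complex, stood at 217 and 207 FPKM, and Eif5a2 at 8.06 and 8.47 FPKM. Of 22 measured genes of mitochondrial charging and translation 11 were higher and 11 lower, with a median of −0.0022, again turning with centring. Furthest apart were 1110008L16Rik, the catalytic subunit of mitochondrial RNase P (3.59 and 4.55 FPKM), Trmu, which modifies mitochondrial tRNAs (14.1 and 11.7 FPKM), Mtrf1l, a release factor (4.07 and 4.74 FPKM), and Mrrf, the ribosome recycling factor (10.8 and 9.56 FPKM).

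Proofreading and synthetase-like genes were lower in 4 of 6 cases, beside 54.7% of all genes compared, with a median of −0.087. Ankrd16, which binds Aars and helps prevent mischarging with serine, stood at 20.7 and 17.4 FPKM, and Aarsd1, a free-standing alanyl editing protein, at 21.9 and 20.1 FPKM. Dtd2 and Dtd1, which remove wrongly attached amino acids from tRNA, went opposite ways, Dtd2 at 11.1 and 9.68 FPKM and Dtd1 at 16.8 and 19.1 FPKM. Prorsd1 stood at 6.95 and 6.63 FPKM. Tarsl2, a further threonyl enzyme gene outside the symbol rule, stood at 9.81 and 10.04 FPKM, close to Tars2.

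**Figure D4:**
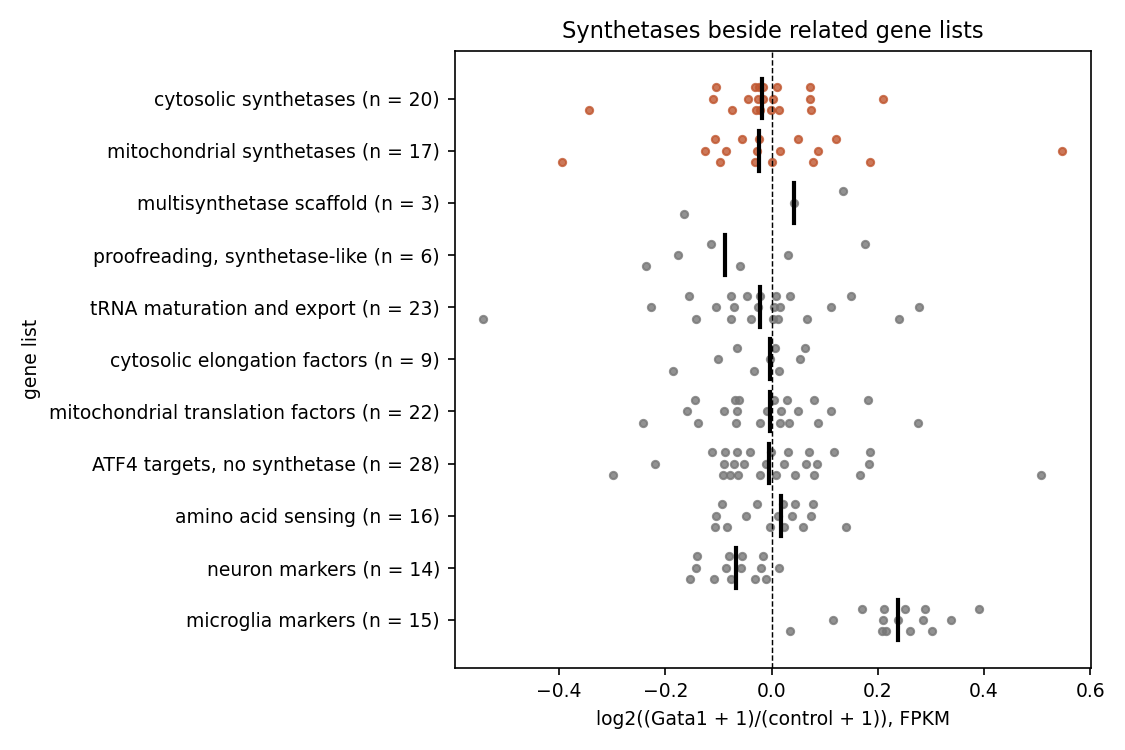
Log2 difference between the libraries for the genes of each list compared, 1 point per gene, with the median as a black bar and synthetases in orange. The medians of both synthetase groups lie at −0.019 and −0.023, near 0, while all 15 microglia markers lie above 0.

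Markers of other cells moved beside these values. Of all genes compared, 45.3% were higher and 54.7% lower. All 15 microglia markers that reached the minimum were higher in the Gata1 library (median 0.24), and the 17 in the tables summed to 736 and 872 FPKM; P2ry12 and Tmem119 were under 1 FPKM in both. Neuron markers were lower in 13 of 14 cases (median −0.067), summing to 1419 and 1375 FPKM. Of 12 markers compared for the oligodendrocyte lineage, 9 were lower (median −0.087), with all 14 summing to 321 and 305 FPKM. Of 10 astrocyte markers 7 were lower (median −0.035), summing to 2486 and 2470 FPKM. Of 4 endothelial and pericyte markers compared 3 were lower (median −0.055), with Acta2, of smooth muscle and pericytes, past 1.2-fold at 76.4 and 60.7 FPKM, and the 12 in the tables summed to 98.6 and 83.9 FPKM. The part of any of these markers' cells in the differences of Lars2, Pars2 and Vars was not tested.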

How the data were processed

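Of 10 samples, 2 mRNA libraries were used, 1 for each virus. The small RNA tables, the chromatin immunoprecipitations and the input DNA were not used here. The deposited values are FPKM made by the authors, per the file headers. Per the submitters' processing notes, the tools include TopHat2 2.1.1, Cufflinks 2.1.1 and Cuffdiff 2.1.1 and the builds are mm9 and mm10, without the assay each served. A stranded library kit was used, per the labels' protocols, but no source used here says whether counting used strand or whether libraries were scaled to each other.

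Each table held 40993 rows. The 6 rows without a symbol (0.0122% and 0.0113% of all FPKM, AAV-Control first) were left out, and for the 64 symbols with several rows the one highest on average was used. The 13740 genes averaging 1 FPKM or more were compared with a pseudocount of 1 FPKM. No more than 43 of 1274 genes under 0.1 FPKM in both libraries had a common log2 ratio (tolerance 0.02), so depth could not be recovered. Tables were computed with Python 3.11.15, pandas 2.3.3 and numpy 2.4.6, and the counting was tested on simulated data. The members and lists were chosen with earlier results of these data known. The members are named except 1 that is not reported here, with Gata1, all genes of a list of up to 6 and the 4 furthest apart of a longer list; markers, Atf4 and overlapping genes are named for their role. Promoter windows and gene overlaps come from RefSeq GRCm38.p6. In it 8 of the 37 members overlap a coding gene: Aars, Farsb, Wars, Hars, Mars, Rars2, Hars2 and Iars2. The part of the overlapping genes' fragments in their values was not tested. The motifs were chosen after the data were seen.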

Additional observations from a re-analysis of the deposited data

How the results depend on the processing

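With 1 library per group and no depth, a limit was set on how far a value could shift. A log2 difference or a ratio was called moved where it shifted by more than 0.073 on the log2 scale. That is the median size of the difference over all genes compared. Counts of genes were judged by a separate and wider fold limit. The alternatives were pseudocounts of 0.1 and 0.01 FPKM, no minimum, a minimum mean of 5 FPKM, summed rows, centring on the median of all genes, and settings that leave genes out. Of 175 alternatives, 173 stayed within the limit for their kind of value and 2 moved. Many of them could not move, so this count is no measure of robustness. Each member had 1 row and a mean of at least 1 FPKM, so summed rows and no minimum left the values of members as they were. Centring shifted every log2 difference by the same amount, the all-gene median of −0.013, which is smaller than the limit. Within the limit for counts, the mitochondrial members counted as higher went from 8 to 6 with a minimum mean of 5 FPKM. The cytosolic members counted as higher went from 7 to 8 with centring. Without Gars and Kars the ratio of the median cytosolic to the median mitochondrial level in the control was 5.08 in place of 5.48. Without Lars2, which was chosen once its value was known, the summed mitochondrial ratio was 0.985. Lars2, Pars2 and Vars stayed the members past 1.2-fold in each setting run: 1 cytosolic and 2 mitochondrial genes were counted in all of them. Centring turned the sign of Iars (0.012) and of the medians of elongation factors (0.010), mitochondrial factors (0.010) and ATF4 targets (0.0070), and a minimum mean of 5 FPKM that of tRNA maturation genes (0.0041). No paired analysis was possible because each group had 1 library.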

Other observations

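Genes of tRNA maturation and export were split, with 11 of 23 higher in the Gata1 library and a median log2 difference of −0.021. Rpp40, a subunit of RNase P, stood at 2.61 (AAV-Control) and 1.48 FPKM (AAV-Gata1). Clp1, an RNA kinase of tRNA splicing mutated in a pontocerebellar hypoplasia, stood at 4.47 and 5.63 FPKM. Pop5 and Rpp21, both RNase P subunits, went opposite ways, Pop5 at 18.3 and 21.7 FPKM and Rpp21 at 23.1 and 19.6 FPKM. Of 16 genes that sense amino acids or uncharged tRNA, 9 were higher, with a median of 0.017. Eif2s1, the target of the GCN2 kinase, stood at 22.7 and 25.1 FPKM, Eif2ak4, which encodes that kinase, at 6.35 and 5.89 FPKM, its activator Gcn1l1 at 17.9 and 16.5 FPKM, and Mtor at 11.6 and 10.7 FPKM.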
